A study of Danio rerio with 96 samples.

Results

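Of the 3183 features of a targeted expression panel, 2074 had a mean count of at least 50 and below 5000. Among 24 zebrafish embryos measured one by one, 55 of these 2074 had a high and a low level with an empty gap of at least 4-fold between them. These on-or-off features are described here by their row number in the deposited count table, because the rows carry no gene or probe name. No sequence or gene role is therefore given for any of them. The study asked how the number of embryos pooled into one RNA sample affects a transcriptome profile. Whole embryos of 1, 5, 10 or 20 per sample (called pool1, pool5, pool10 and pool20 below) were collected at 120 hours post fertilization, with 24 samples per pool size in 3 batches of 8. All 96 samples carried the same treatment, 0.1% dimethyl sulfoxide (DMSO, a solvent used as vehicle), for 5 days from 3 to 4 hours post fertilization, and there was no untreated group. No strain and no parent pair is given in the sources used here, and nothing states that the 8 samples of a batch were separate dishes.

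The members were chosen from the single-embryo values themselves. Each count was put on a log2 scale as counts per 1000000 counts of the sample (CPM), with 0.5 counts added. A feature was a member when its mean count over all 96 samples was at least 50 and below 5000, when its standard deviation (SD) over the 24 single embryos was above 1 after the mean of each batch and of its samples 1 to 4 or 5 to 8 was subtracted, and when the 24 uncentred values had a gap of at least 2 log2 units with at least 3 embryos on each side. Of the 2074 features in the count range, 309 had a spread above 1, and 254 of these had no such gap. All 55 features in the count range with the gap also had the spread, so the gap decided membership. The embryos above the gap are called on and those below it off. The 2 members just inside the gap threshold, features 3137 and 1152, both had a gap of 2.00, and the 2 features just outside it, 1598 and 807, had gaps of 1.98 and 1.96. The lowest member spreads were 1.18 in feature 245 and 1.2 in feature 1111. The lowest member mean counts were 50.6 in feature 2566 and 53.6 in feature 1152, against 47.9 and 47.3 in features 2417 and 2994 just below the limit. The upper count limit was far from any member: the highest member mean was 2903 in feature 3026, and the nearest feature above the limit, 1954, had a mean of 5113. All values from the single embryos that follow, up to the held-out batches, describe what the choice of members used and were not tested.

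The panel was read with TempO-Seq, in which a pair of detector oligos that lie side by side on a transcript are ligated, amplified and counted, so each feature counts one targeted stretch of RNA. A zebrafish embryo at this age is a hatched, free-swimming larva with a beating heart and a forming gut and liver, and the RNA of a whole embryo sums over all of its tissues. When single animals are measured, a transcript that is present in some animals and missing in others forms 2 separate levels, whereas a pool shows their average. In whole-embryo RNA, fewer cells of a type and less RNA per cell cannot be told apart.

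Total counts per sample ranged from 3336312 to 5343504 in single embryos and from 3791022 to 6441627 in pools. The libraries were not balanced over dates. Single embryos and pools of 5 were exposed and extracted in December. Pools of 10 came from an exposure of 2 November (batches 1 and 2, extracted on 23 and 24 November) and one of 13 December (batch 3, extracted on 18 December). Pools of 20 are all labelled with an exposure of 4 November, while their extraction dates are 23 November for batch 1, 24 November for batch 2 and 15 December for batch 3. Whether the exposure label of pool20 batch 3 is right could not be checked, so in pool20 extraction date, batch and a possible other exposure cannot be told apart. Pool size therefore cannot be told apart from date except where one exposure holds both sizes. Pool1 and pool5 share the exposure of 12 December, and pool1 batch 3 and pool10 batch 3 share that of 13 December. One single embryo, sample 3 of batch 3, stood apart in the members: 31 of the 55 were off in it, against 14 to 23 in the other 23 embryos. Its total of 4209728 counts was not low. Without it the rule chose 51 features, 48 of them members (chosen after seeing the data). Samples 5 to 8 of batch 1 also stood apart in pool1 and pool5: their mean log2 CPM differed by more than 1 from that of samples 1 to 4 in 31% and 20.1% of the 2074 features in the count range, against 0.145% to 10.0% in the other 10 batches. No library was a copy of another.

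The 2 levels were far apart. The gap itself ranged from 2.00 to 4.15 log2 units with a median of 2.80, or from 4.01-fold to 17.7-fold with a median of 6.95-fold on that scale. The median on level ranged from 5.05 to 1044 CPM, and the median off level from 0 to 43.7 CPM. For 25 members no off embryo had 3 counts or fewer, and in these the on median was 10.5 to 109 times the off median, with a median of 30.9. In 17 members the off median lay below the floor of 3 counts, which was 0.899 CPM in the smallest single-embryo library and 0.561 CPM in the largest. The SD of the log2 level had a median over members of 0.62 within the on state and 0.77 within the off state, both well below the gap.

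Most off values rested on more than 3 counts. Whether such reads come from the transcript or from assay background was not tested. Of the 445 off values, 48 were counts of 0 (10.8%) and 135 were counts of 3 or fewer (30.3%), while the other off values rested on more reads. All off embryos were at 3 counts or fewer in 7 members, and all were at 0 in features 2566 and 2428. The on state of 3 members reached below 10 counts: 2 counts in feature 2428, 7 in feature 2566 and 8 in feature 1152, so their lower on values lay close to or below the floor. In 33 members the lowest on embryo still had 100 counts or more.

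The number of on embryos ranged from 3 to 21 with a median of 18 of 24, so the off state was usually the rarer one. In 15 members just 3 embryos were off, the smallest number the rule allowed: features 3026, 867, 2566, 3022, 1293, 1144, 798, 425, 245, 2342, 2428, 315, 687, 2426 and 2535. A further 14 members were off in 4 to 6 embryos: features 1111, 1249, 272, 49, 3137, 1460, 1351, 1755, 1152, 1180, 2139, 837, 3041 and 432. Another 22 were off in 7 to 17 embryos: features 1276, 1828, 2337, 2778, 1175, 2983, 321, 1037, 1917, 2005, 145, 1093, 1822, 2006, 2646, 1082, 1779, 2058, 1767, 1631, 767 and 17. The last 4, features 2952, 1469, 1555 and 163, were off in 20 or 21 embryos and on in 3 or 4.

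**Figure D1:**
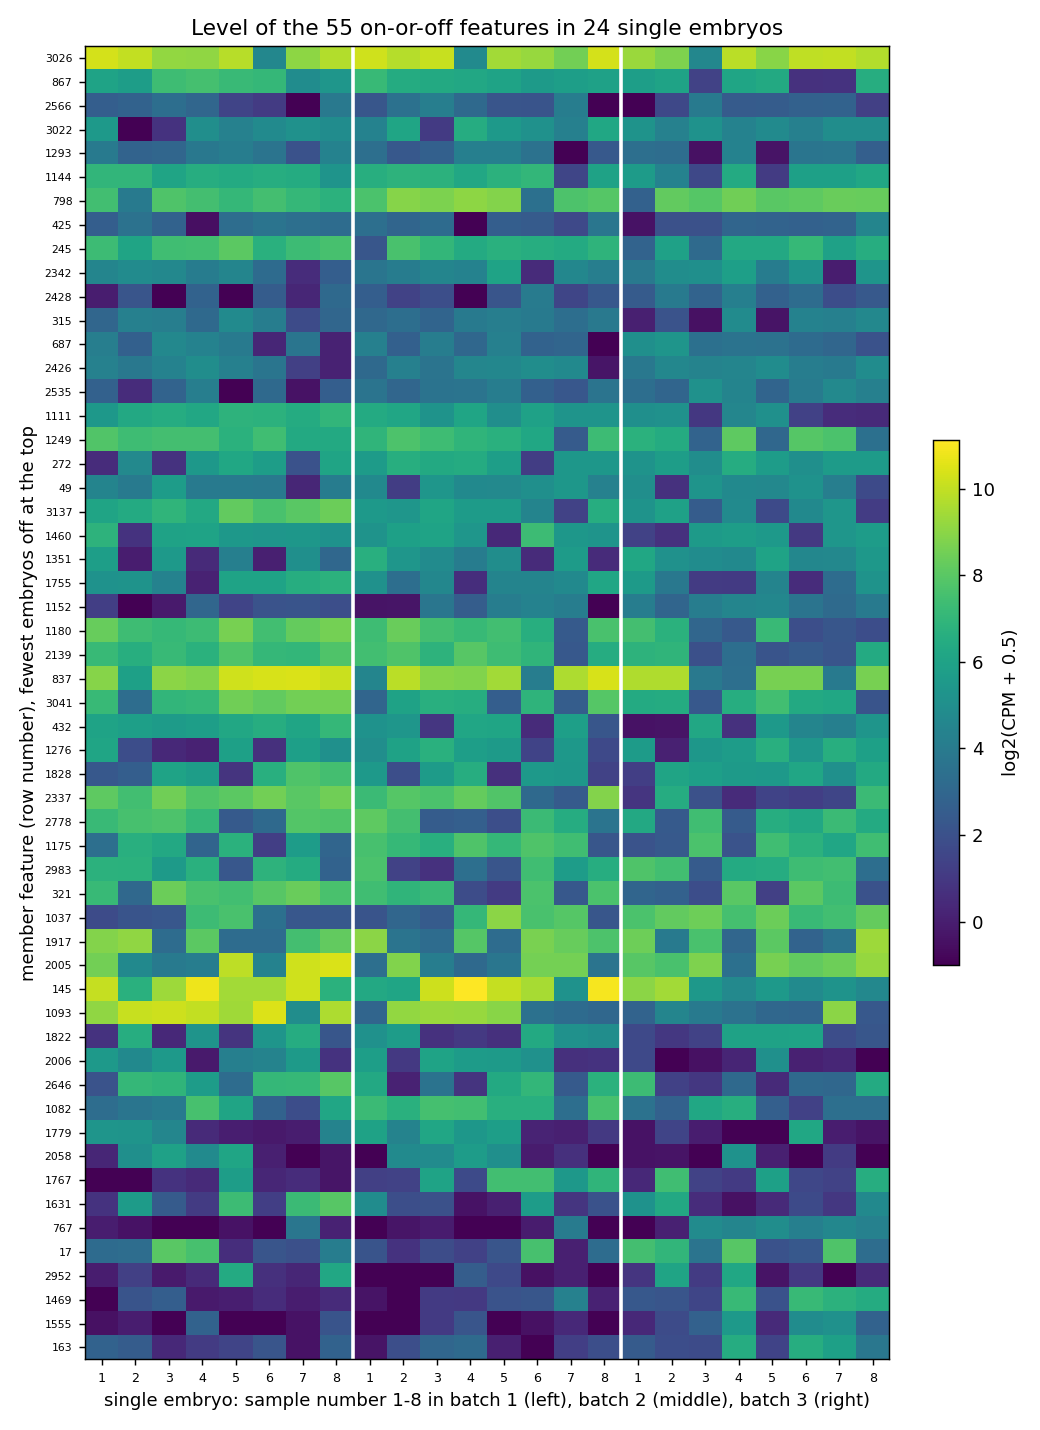
Level of each of the 55 members (one line each, ordered by the number of embryos off) in each of the 24 single embryos, as log2 of CPM plus 0.5 on the colour scale. Within a line the off embryos are darker than the on embryos. All lines share the colour scale, so the step is small in members of low level, such as feature 2428 (0 CPM off, 0.476 to 18.3 CPM on). The embryos that are off differ from line to line, with sample 3 of batch 3 off most often (31 of 55 members).

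The members with the largest gaps show the 2 states at levels that differ between features by more than an order of magnitude. Feature 767 was on in 8 embryos, at 13.1 to 30.6 CPM with a median of 21.1, and off in 16, at 0 to 0.599 CPM with a median of 0.121. Feature 1093 divided the embryos evenly, with 12 on at 503 to 1432 CPM (median 643) and 12 off at 4.51 to 29.7 CPM (median 8.39). Feature 1460 was on in 19 embryos at 36 to 156 CPM (median 44.9) and off in 5 at 0.820 to 2.13 CPM. In these 3 features the gap was 17.7-fold, 16.9-fold and 16.0-fold on the scale used for the choice.

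Feature 2058 was on in 9 embryos at 27.2 to 68.5 CPM (median 32.6) and off in 15 at 0 to 1.67 CPM (median 0.291). Feature 321 was on in 15 embryos at 121 to 331 CPM (median 196) and off in 9 at 1.64 to 7.96 CPM (median 3.67). Feature 1767 was on in 9 embryos at 43.8 to 176 CPM (median 91.6) and off in 15 at 0 to 2.81 CPM (median 1.21). Features 2058 and 1767 were on equally often and feature 321 more often. In each of these 3 the on embryos spread over less than the distance between the states.

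Feature 3026, the most abundant member, was on in 21 embryos at 368 to 1286 CPM (median 853), while the remaining 3 embryos had 23.5, 24.0 and 26.8 CPM. Feature 867 was on in 21 embryos at 29 to 187 CPM (median 69.7) and off in 3 at 1.13, 1.19 and 2.14 CPM. Feature 1180 was on in 18 embryos at 96.5 to 400 CPM (median 174) and off in 6 at 3.10 to 7.60 CPM (median 4.52). The off embryos of feature 3026 came from all 3 batches, and its off level lay far above the floor.

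Feature 1037 was on in 14 embryos at 134 to 521 CPM (median 200) and off in 10 at 2.85 to 10.7 CPM (median 4.41). The 4 members that were on in few embryos had narrow on levels: 66 to 83.2 CPM in feature 2952, 86.3 to 144 CPM in feature 1469, 28.8 to 47.1 CPM in feature 1555 and 58.8 to 91.6 CPM in feature 163. Their highest off embryos had 5.37, 19.4, 6.54 and 13.5 CPM in the same order.

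Both states were found within batches, which the rule itself favours. It asks for a spread above 1 after the mean of each batch and of its samples 1 to 4 or 5 to 8 is subtracted. A feature split between batches alone was therefore unlikely to be chosen, and the counts that follow are a description. Both states occurred within all 3 batches for 30 members, within 2 batches for 18 and within 1 batch for 7. Every one of the 55 had both states inside at least 1 set of 4 embryos that shared batch and sample set, and 43 had them inside at least 3 of the 6 sets. The share of on states was 69.1% in batch 1 (304 of 440), 67.3% in batch 2 (296) and 62.5% in batch 3 (275). Within batch 1, samples 1 to 4 and samples 5 to 8 had 150 and 154 on states of 220.

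Some members leaned towards one batch all the same. Features 1469, 1555 and 163 were on in batch 3 alone, and features 867, 1111 and 315 were off in batch 3 alone. A set of 12 members was on in all 8 embryos of batch 1. Feature 1093 was on in 7 of 8 embryos of batch 1, 4 of batch 2 and 1 of batch 3, and its batch means were 844 ± 438, 292 ± 305 and 73.3 ± 177 CPM (SD, n = 8 each). On and off embryos of this feature stood side by side in every batch.

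Which embryos were off differed from member to member. The 55 members had 52 distinct patterns over the 24 embryos, and 3 pairs had the same pattern: features 1293 and 1144, features 1249 and 3137, and features 1555 and 163. Over the 1485 pairs of members the median Spearman correlation of the centred values in the 24 embryos was 0.01, against 0.03 over pairs of all features in the count range. A correlation above 0.5 was no more common among members: it was found in 27 of their pairs and in 64397 of 2149701 pairs of all these features. Average linkage on 1 minus that correlation, cut at 0.4, left 48 members alone, joined 2 pairs (features 1037 and 2426 with a correlation of 0.81, and features 1093 and 2058 with 0.64) and formed 1 group of 3. These points share libraries and depth, and embryos of one batch may share parents.

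The group of 3 was made of features 1293, 1144 and 1249. Feature 1293 had 3.65 to 20.4 CPM in its 21 on embryos (median 11.5) and 0, 0.238 and 0.281 CPM in its off embryos. Feature 1144 had 20.3 to 128 CPM in its 21 on embryos (median 85.6) and 1.68, 2.43 and 2.61 CPM when off. Feature 1249 had 72.8 to 278 CPM in its 20 on embryos (median 161) and 5.13 to 10.4 CPM in the 4 off. All were off in sample 7 of batch 2 and in samples 3 and 5 of batch 3, and feature 1249 was also off in sample 8 of batch 3. Feature 3137, which was off in the same 4 embryos as feature 1249, correlated with it at 0.69 but was not joined to the group. In pools, the group's median pair correlation was -0.47 with 5 embryos, 0.01 with 10 and -0.09 with 20.

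Position in the table did not go with the pattern. Features 2005 and 2006 were the one pair of members in adjacent rows, and the 110 comparisons of a member with a feature in the row before or after it had a median Spearman correlation of 0.04, with none above 0.6. The order of rows carries no known genome order.

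The spread, not the gap, was next followed into embryos whose spread and gap had no part in choosing the features. The rule, with at least 2 instead of 3 embryos on each side of the gap, was applied to 2 batches of single embryos. The spread was then read in the third. Without batch 1 the rule chose 93 features, 49 of them members, and 59 of the 93 (63.4%) had an SD above 1 in batch 1, against 13.6% of all features in the count range. Without batch 2 it chose 97 features, 54 of them members, and 77 (79.4%) passed in batch 2, against 15.7% of all. Without batch 3 it chose 84, 42 of them members, and 52 (61.9%) passed in batch 3, against 11.5% of all. In each batch left out, the chosen features were spread out at 4 or more times the background share. The mean count over all 96 samples, which the rule also uses, still included the batch left out.

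In pools, the median spread of the members shrank but stayed above that of all features in the count range. The 254 features with a spread above 1 but no gap were not set beside the members, here or in the batches left out. Whether the lasting spread is particular to the members was therefore not tested. Centred as in the rule, their log2 CPM had a median SD of 1.85 in single embryos, where it chose the members, 0.56 in pools of 5, 0.41 in pools of 10 and 0.32 in pools of 20. Over all 2074 features in the count range it was 0.47, 0.33, 0.24 and 0.18. An SD above 1 remained in 9 of 55 members with 5 embryos per sample (background 1.01%), in 5 with 10 embryos (background 0.289%) and in 2 with 20 (background 0.0964%). The last 2 were feature 2952, with an SD of 1.14, and feature 1779, with 1.07, and no other feature in the count range passed there. Low counts enter both SDs. Feature 2952 had a median of 0.416 CPM in pool20 batch 3. In feature 1779, 12 of 24 pool20 samples lay at or below its highest off embryo, 2.32 CPM. For 51, 51 and 49 of the 55 members, in order of pool size, the SD lay above the median of all features. Because a feature of high spread among single animals was the starting point, this is the same measure in samples the choice did not use for the spread, although the mean count over all 96 samples did enter it.

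**Figure D2:**
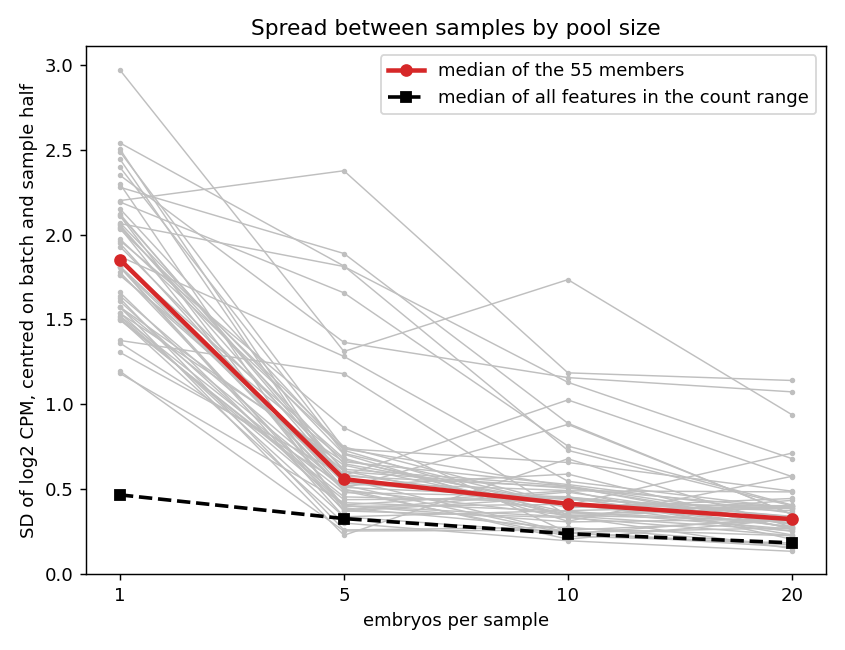
SD of log2 CPM between samples (vertical axis) against pool size (horizontal axis, evenly spaced), one grey line per member, with the median of the 55 members in red and of all 2074 features in the count range in dashed black. The red line falls from 1.85 to 0.32 and stays above the black line, which falls from 0.47 to 0.18.

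The fall from pool5 to larger pools was tested with limma on the absolute deviations from the batch and sample-set mean, fitted over 72 pool samples and 2198 features with Benjamini-Hochberg adjustment. From pool5 to pool20, 25 of the 55 members became less variable and none more, where 34.1% of all features became less variable. The difference was below 0 in 51 of 55 members and in 2071 of all 2198 features, a like share. Feature 2952 fell by 1.48 ± 0.29 log2 units in mean absolute deviation (SE, limma adjusted p = 2.07e-04), and feature 1767 fell by 1.37 ± 0.25 (limma adjusted p = 6.84e-05). Their lowest pool5 samples had 0.338 and 0.412 CPM. From pool5 to pool10, 12 members became less variable and 1 more, feature 1144. Of all 2198 features 9.46% became less variable and 4 features more. Feature 1144 lost its call in 5 of 13 alternatives, among them those without pool10 batch 1 and without pool10 batch 2. The count for pool20 was 14 without pool5 batch 1, and 11, 16 and 16 without pool20 batch 1, 2 and 3, where 281, 248, 419 and 437 of all 2198 features were called in either direction. The count for pool10 was 2 without pool10 batch 1 and 21 without pool5 batch 3, where 17 and 625 of all features were called. Without samples 5 to 8 of the batches numbered 1 the counts were 13 and 5, with 259 and 112 of all features called. With the 3 batches as replicates they were 1 and 0, with 10 and 0 of all features called. Features 2952 and 1767 then lost the call from pool5 to pool20 (limma adjusted p = 0.265 and 0.0663). Pool size and date cannot be told apart in either comparison. Samples of a batch may share a dish, so all p-values here reflect sample-to-sample spread, which may be technical.

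The size of the fall was set beside that expected when independent embryos are averaged. Dividing each member's coefficient of variation among single embryos (median 0.723) by the square root of the pool size gives medians of 0.323, 0.229 and 0.162. The medians measured in pools of 5, 10 and 20 were 0.391, 0.304 and 0.243. The ratio of measured to averaged had a median of 1.22, 1.2 and 1.42 over the members, and of 1.54, 1.62 and 1.77 over all features in the count range. The rule picked features that vary much among single embryos, which raises the averaged value for the members and lowers their ratio, so nothing is read from the difference. The members' ratios ranged widely, from 0.633 to 3.49 in pool5.

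Most pool values fell in the on range or inside the gap that single embryos left empty. Of 1320 pool5 values, 916 were at or above the lowest on embryo of their member, 301 lay inside the gap and 103 were at or below the highest off embryo. Pools of 10 gave 891, 354 and 75 such values, and pools of 20 gave 868, 364 and 88. Complete sets of 24 samples in the on range were found for 11 members at 5 embryos, 12 at 10 and 16 at 20, all of them off in 6 or fewer single embryos except features 1037 and 1917 in pools of 20. Off-range values occurred in 12, 13 and 11 members.

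Among the members with the largest gaps, feature 767 filled the gap in pools. It had 0 to 15.4 CPM in pool5 (median 5.36), with 18 of 24 samples inside the gap, and 4.26 to 42.5 CPM in pool20 (median 18.8), with 20 of 24 in the on range. Feature 1767 had 0.412 to 82.8 CPM in pool5 (median 12.9), where 10 samples were in the off range, 11 in the gap and 3 in the on range. In pool20 it had 22.3 to 136 CPM (median 65.3) and no sample was in the off range. Both features were on in under 10 of 24 single embryos, and both had pool5 samples in all 3 ranges.

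Feature 3026 had 441 to 1056 CPM in all pool5 samples, all in the on range, and 296 to 702 CPM in pool20, where 4 samples lay in the gap. Feature 867 had 7.20 to 83.6 CPM in pool5 and 18.6 to 78.1 CPM in pool20, with 23 of 24 pool20 samples in the on range. Feature 1460 had 10.9 to 111 CPM in pool5, while all 24 pool20 samples lay in the gap at 2.96 to 21.7 CPM. Feature 1180 had 94.2 to 583 CPM in pool5 and 51.1 to 178 CPM in pool20. None of these 4 features had a pool sample in its off range.

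A gap of at least 2 log2 units also appeared within a pool size. It was found in 3 members in pool5 (features 767, 1767 and 2952, with gaps of 2.22, 2.61 and 3.00), in 3 in pool10 (features 1093, 321 and 1469, with 4.65, 2.05 and 2.18) and in 2 in pool20 (features 2952 and 1093, with 3.27 and 2.98). Over all 2074 features in the count range 4, 17 and 3 had such a gap. In pool10 the gaps of features 1093, 321 and 1469 separated batch 3 from batches 1 and 2, and in pool20 that of feature 1093 did so. The pool20 gap of feature 2952 had only samples of batch 3 below it, 7 of the 8, at 0.676 CPM or less. Sample 4 of batch 3 (9.86 CPM) and all samples of batches 1 and 2 (from 13.8 and 7.51 CPM) lay above it. None of these gaps of features 1093, 321 and 1469 lay between samples of one batch.

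**Figure D3:**
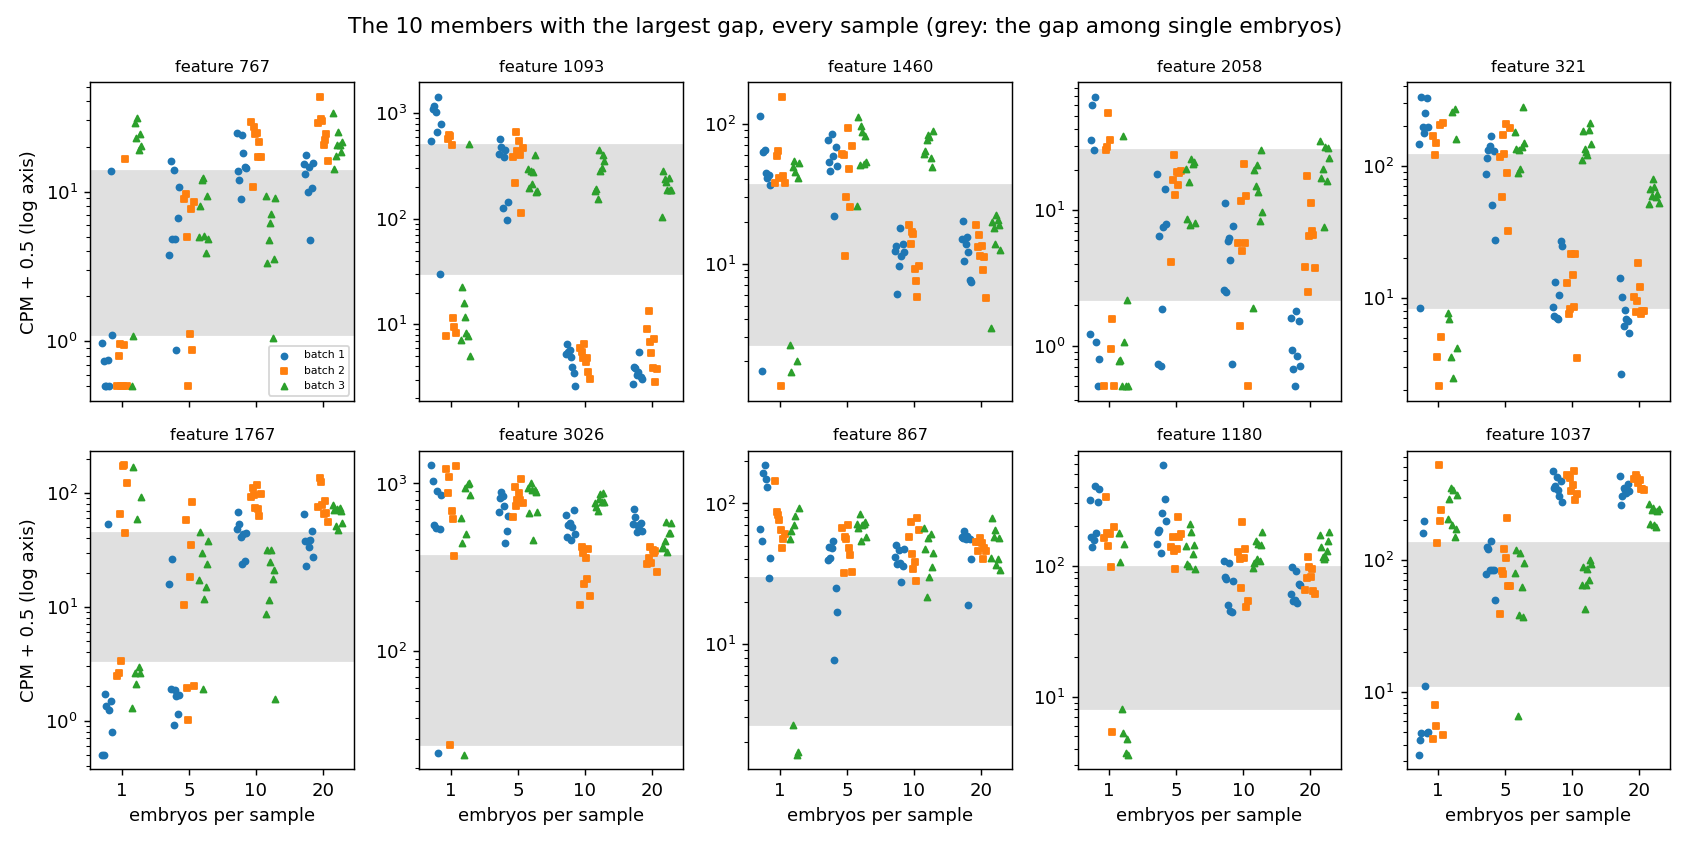
CPM plus 0.5 on a log axis in every one of the 96 samples for the 10 members with the largest gap, by embryos per sample, with colour and shape for the batch number and the single-embryo gap shaded grey. Single embryos leave the grey band empty, pools of 5 often lie within it (18 of 24 samples for feature 767), and in features 1093 and 321 batches 1 and 2 of pool10 and pool20 lie apart from batch 3.

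Pools and single embryos of the same exposure were then compared in level. The single-embryo values also chose the members, so the closeness of the means is a description. For the exposure of 12 December, the mean of 24 pools of 5 was within 2-fold of the mean of 16 single embryos for 48 of the 55 members, against 98.5% of all features in the count range. The log2 ratio of pool to mean embryo had a median of -0.10 and ranged from -1.14 to 1.46. For the exposure of 13 December, 8 pools of 10 were within 2-fold of the mean of 8 single embryos for 35 of the 55 members, against 95.5% of all, with a median log2 ratio of 0.11 and a range from -4.26 to 2.02. In the second comparison each single-embryo mean rests on 8 animals.

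**Figure D4:**
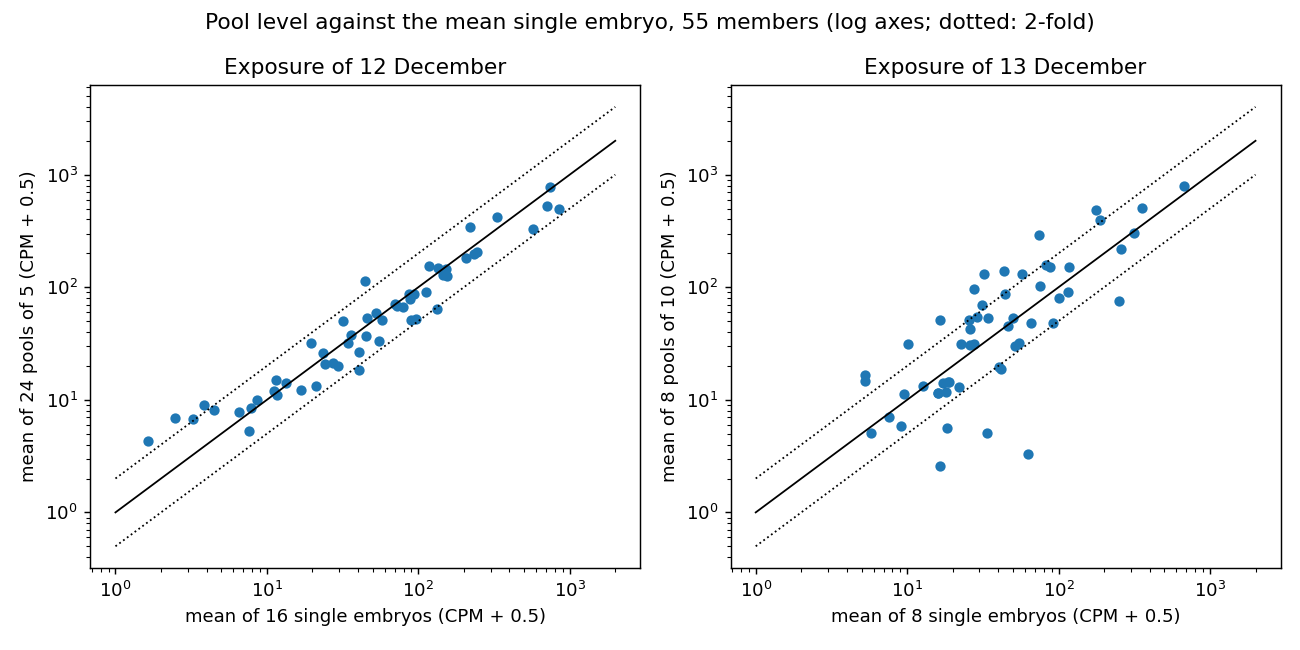
Mean CPM plus 0.5 of the pools (vertical log axis) against the mean of the single embryos of the same exposure (horizontal log axis), one point per member, with the line of equality and dotted lines at 2-fold. For 12 December 48 of 55 points lie between the dotted lines, and for 13 December 35 of 55 do, with the farthest points below the lines.

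The tests of level between pools and single embryos use the values that chose the members, so their counts are given as a description and nothing is read from them. With the batch as the replicate (3 batch sums of pool5 against 2 of pool1), edgeR's quasi-likelihood test called 0 of the 55 members and 0 of all 3084 features tested (background 0%). At an unadjusted p under 0.05 it gave 8 members and 174 features, and DESeq2 called 1 member and 9 features at an adjusted p under 0.05. For the exposure of 13 December, 8 pools of 10 against 8 single embryos gave 5 members, with lower values in the pools, where 7.52% of all 2567 features were called. DESeq2 called 10 members and 268 of 3039 features. Feature 1469 had 62.1 ± 65 CPM in single embryos and 2.77 ± 1.77 CPM in pools (SD, n = 8 each), a log2 difference of -4.44. Feature 1555 had 15.9 ± 18.1 and 2.09 ± 1.17 CPM, a difference of -2.85. Both, and feature 163, entered the set through the few high embryos of this batch. The other 3 called were features 163, 1037 and 1351. With 1 batch of each size, the batch cannot be told apart from the pool size.

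Features 1469, 1555 and 163 had a further pattern in common. Their on embryos were samples 4, 6 and 7 of batch 3, joined by sample 8 for feature 1469. Those 4 embryos also had the most features with at least 5 counts: 2894, 2869, 2783 and 2743, against 2487 to 2679 in the other 20 embryos. In pools the same 3 features were highest in the 4 batches extracted in November, with batch means of 25.7 to 88.8 CPM against 1.77 to 12.3 CPM in December for feature 1469, 15.2 to 58.6 against 0.945 to 6.01 CPM for feature 1555, and 19.5 to 56.6 against 3.21 to 11.2 CPM for feature 163. The number of features with at least 5 counts was 3006 to 3120 in those November pools and 2690 to 3060 in the December pools. The part of that number in the level of the 3 features was not tested.

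Within one pool size the members differed between batches, as did most features. In pool10, batch 3 (December) against the mean of batches 1 and 2 (November) gave 42 of 55 members in edgeR's quasi-likelihood test, 27 higher and 15 lower, where 78.3% of all 3045 features were called. The members' share was near the background. The median absolute log2 change was 1.02 over the members and 0.74 over all features tested. Feature 1093 was higher by 6.83 ± 0.17 log2 units (SE, edgeR adjusted p = 1.54e-24), with 2.08 to 6.04 CPM in batch 1, 2.56 to 5.98 CPM in batch 2 and 154 to 452 CPM in batch 3. Feature 1779 was higher by 4.43 ± 0.39 (SE, edgeR adjusted p = 1.72e-11), at 3.41 ± 2.61 and 1.72 ± 2.82 CPM against 31 ± 10.1 CPM (SD, n = 8 each). In feature 1093 the November and December pools did not overlap.

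Features 1469 and 1555 were lower in the December pools of 10. Feature 1469 changed by -3.73 ± 0.23 (SE, edgeR adjusted p = 5.19e-15), from 28.8 to 60.9 CPM in batch 1 and 59.5 to 130 CPM in batch 2 to 0.945 to 6.27 CPM in batch 3. Feature 1555 changed by -3.32 ± 0.19 (SE, edgeR adjusted p = 1.13e-15), from 17.9 to 32.7 and 41 to 78.1 CPM to 0.784 to 4.45 CPM. Neither feature overlapped between the months. Their mean counts over all 96 samples were 114 and 61.3, where the rule asked for at least 50. The high November values entered these means, so both differences are a description. Month, batch and extraction date cannot be told apart in this comparison.

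Pools of 20 carry the same exposure date in the labels and differ in extraction date, and the F test over their 3 batches called 51 of 55 members, where 73.6% of all 3039 features were called. Each adjusted p-value given beside a difference between batches 3 and 1 is that of the F test over all 3 batches. Feature 1093 had 2.23 to 4.94 CPM in batch 1, 2.35 to 12.9 CPM in batch 2 and 103 to 286 CPM in batch 3, a log2 difference of 6.28 between batches 3 and 1 (edgeR adjusted p = 1.55e-24). Feature 2058 had 0 to 1.3, 1.98 to 17.4 and 7.02 to 32.1 CPM, a difference of 5.48 (edgeR adjusted p = 4.43e-12). Batches 2 and 3 of feature 2058 overlapped, and batch 3 of feature 1093 stood clear of both others. In the same order of batches, feature 2952 had 27.4 ± 11.6, 22.4 ± 14.2 and 1.51 ± 3.38 CPM, a difference of -3.81 (edgeR adjusted p = 3.90e-07), and feature 1555 had 15.2 ± 2.90, 29.3 ± 6.94 and 2.85 ± 2.38 CPM, a difference of -2.19 (edgeR adjusted p = 4.26e-11; SD, n = 8 each). Without batch 3, features 2952 and 1555 differed between batches 2 and 1 by -0.26 (edgeR adjusted p = 0.469) and 0.96 (edgeR adjusted p = 1.14e-05). Without batch 3 the difference of feature 1093 fell to 0.94. As in pool10, the high November values of feature 1555 entered the mean count that chose it, so its difference is a description.

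**Figure D5:**
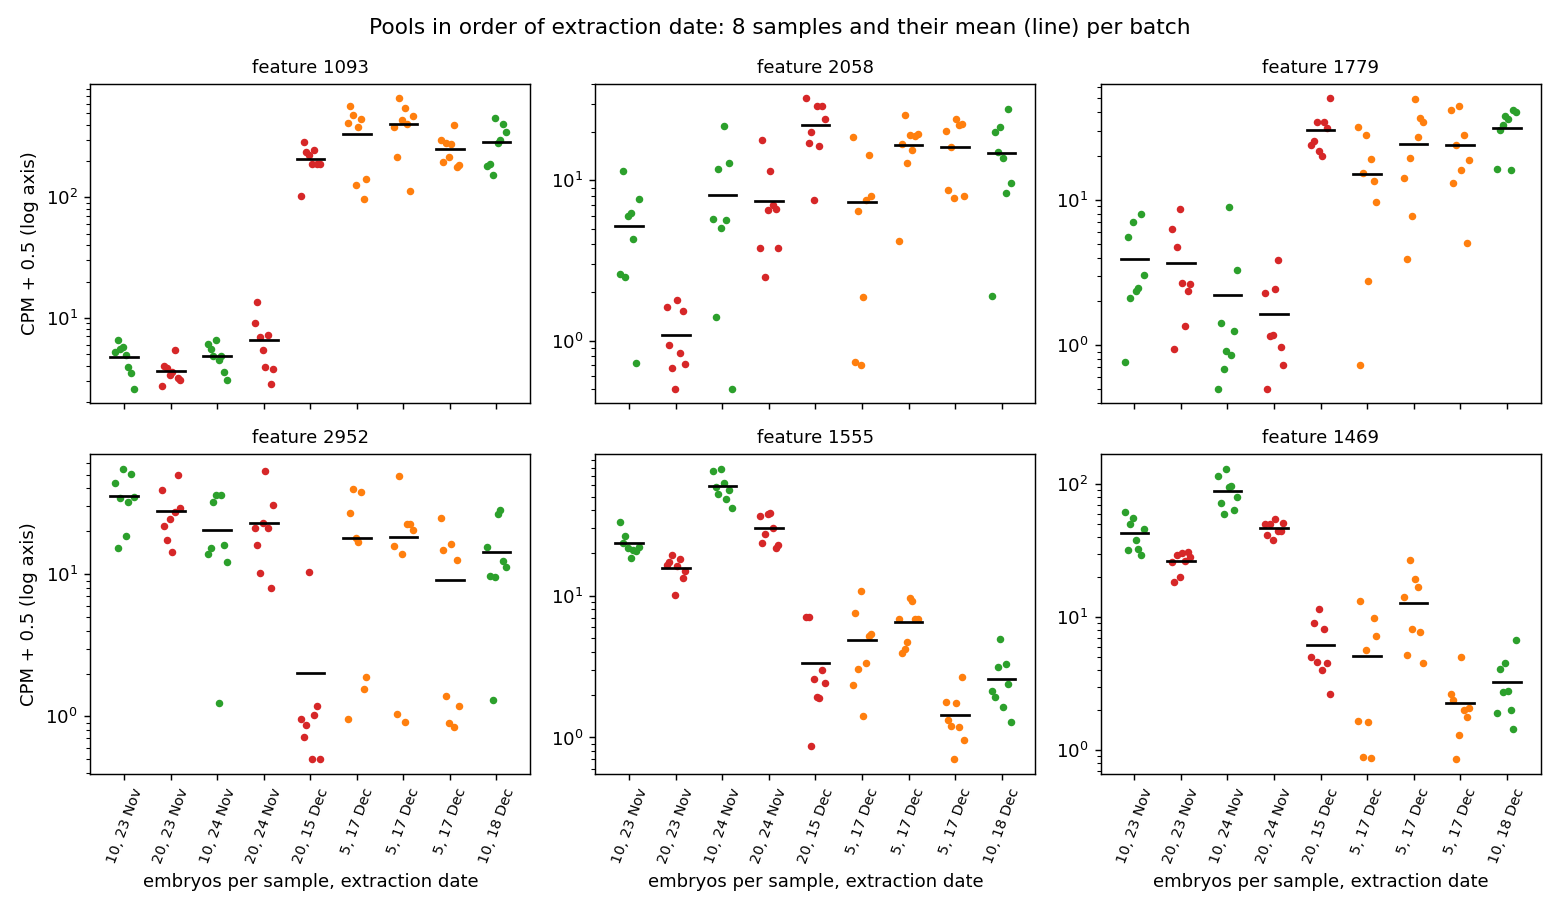
CPM plus 0.5 on a log axis for 6 members in the 9 pool batches, in order of extraction date (horizontal axis, with embryos per sample; orange 5, green 10, red 20), with 8 samples and their mean as a line. Features 1093 and 1779 have lower means in all 4 batches extracted in November than in the 5 extracted in December, with overlapping samples in feature 1779, and the means of features 1469 and 1555 lie the other way round.

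Pools of 5 shared one exposure and one extraction date, and here fewer members were called. The F test over the 3 batches called 9 of 55 members, where 14.2% of all 2733 features were called, and 3 of the 9 were higher in batch 3 than in batch 1 and 6 lower. Again, the adjusted p-values beside differences between batches 3 and 1 are those of the F test over all 3 batches. Feature 2342 had 15.8 ± 7.37, 32.2 ± 30.1 and 45.9 ± 14.9 CPM in batches 1, 2 and 3 (SD, n = 8 each), a log2 difference of 1.63 between batches 3 and 1 (edgeR adjusted p = 0.0326). Feature 867 had 34.7 ± 16.7, 50.2 ± 14.7 and 68.1 ± 9.41 CPM, a difference of 1.08 (edgeR adjusted p = 0.0297). Feature 2428 had 13.5 ± 10.2, 6.62 ± 2.74 and 2.62 ± 1.08 CPM, a difference of -2.28 (edgeR adjusted p = 0.00752). Feature 1555 had 4.38 ± 3.08, 6.01 ± 2.15 and 0.945 ± 0.608 CPM, a difference of -2.09 (edgeR adjusted p = 0.00648). Without batch 3, 0 members and 0 of all features were called, and feature 1555 then differed by 0.42 (edgeR adjusted p = 0.742). Feature 2342 was also not called without batch 1 (0.62, edgeR adjusted p = 0.306). Without samples 5 to 8 of batch 1, 6 members were called, and feature 2342 no longer was (difference 1.11, edgeR adjusted p = 0.213). The share of members called was near the background. Numbers of calls cannot be compared between pool sizes as sizes of difference, because the noise differed. The common dispersion, edgeR's measure of spread between like samples, was 0.111 here. It was 0.0275 for the batches of 20 embryos and 0.0475 for the months of pool10. The median absolute log2 difference between batches 3 and 1 was 0.51 over members and 0.36 over all features tested. For 20 embryos per sample these medians were 0.64 and 0.33. Whether a shared date lowers them was not tested.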

How the data were processed

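Per the labels' protocols, total RNA of whole embryos was run on the TempO-Seq S1500+ zebrafish panel and sequenced on an Illumina instrument. The values are whole-number counts per feature as deposited by the authors, with no normalization. The submitters' processing notes name DESeq2 1.31.15, RSEM 1.3.3, STAR 2.7.10a, fastp 0.23.2 and bcl2fastq 2.20. Neither settings nor a reference build is given in the sources used here. STAR and RSEM can share reads between near-identical targets, which cannot be checked without row names.

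The members and the lists were chosen with earlier results of these data known. Members were found by the rule given above, and CPM was computed from column totals. Levels were tested with edgeR 4.0.16 (quasi-likelihood, filterByExpr, TMM scaling) and spread on absolute deviations with limma 3.58.1, in R 4.3.3, two-sided, with Benjamini-Hochberg adjustment over all features tested and a threshold of 0.05. DESeq2 1.42.0 was an alternative. Rules and figures used Python 3.11.15. Named features are the 10 members with the largest gap, up to 3 of each group of at least 3 linked members, and in each test up to 2 members in each direction. Features named otherwise are counted sets of 5 or fewer, or were chosen after their values were seen (features 163, 1037, 1351 and 3137 among them). Tested on simulated data with 200 features changed 4-fold, the level tests found 99.5% (pool5 batches, 2681 features), 100% (pool20 batches, 3010; pool10 months, 3018), 91.5% (pool5 against pool1, 3046) and 95% (pool10 against pool1, 2582). The spread test found 98% of 200 features given an 8-fold higher dispersion in pool5, among 2198 features. It made 30 false calls, a larger share of its calls than the threshold of 0.05. Alternatives changed the gap, the embryos on each side, the added count, the scaling, the filter, the tool and the batches kept.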

Additional observations from a re-analysis of the deposited data

Results flagged for a closer look

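In 3 of 38 sets of 8 samples examined for the named features, 1 sample lay far from the other 7 by Dixon's criterion at 95% on log2 CPM with 0.5 counts added, which chance gives in about 1 of 20 sets. All 3 were in pool20 batch 3, extracted on 15 December, and in 2 of them the distant sample was sample 4. Feature 1093 had 103 CPM in sample 1 against 187 CPM in the next lowest, and on the log2 scale the ratio of that distance to the whole range was 0.585. Feature 2058 had 7.02 CPM in sample 4 against 15.9 CPM in the next lowest, a log2 ratio of distance to range of 0.536. Feature 2952 had 9.86 CPM in sample 4 against 0.676 CPM in the next highest, a log2 ratio of distance to range of 0.554.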

How the results depend on the processing

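The number of members rested on the gap. It was 55 as reported, 86 with a gap of at least 1.5, 35 with at least 2.5 and 83 with 2 or more embryos on each side. With the gap read on values centred on batch and sample set it was 12 (8 of them members), and the cause was not tested. Leaving out 1 batch of single embryos, with 2 or more embryos on each side, gave 84 to 97, with 42 to 54 members among them. With counts below 3 raised to 3 (chosen after seeing the data) it was 48. Of 78 alternatives to counts, 55 stayed within 1.5 times the reported count.

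Among the level tests, pool5 batches gave 0 to 9 members when 1 batch was left out. Pool5 against pool1 gave 1 with DESeq2 and 2 with single samples as replicates (157 of all 2678 features). Pool10 against pool1 gave 10 with DESeq2. For pool5 against pool1, a block by batch number, without pool5 batch 3, gave 17 members (145 of all 3076 features). It rested on 2 batch sums of each size, and whether batches of one number share anything was not tested. For pool10 against pool1, a block by sample number gave 10 members (161 of 2567), 2 of which were among the 5 reported. No label links samples of one number across pool sizes. Same-numbered samples of pool5 and pool10 correlated above 0.1 in 12 of 24 cases, those of pool1 and pool5 in 7 of 24, and those of pool1 and pool10 in 7 of 24. For spread, pool20 against pool5 gave 25 as reported, 1 with batches as replicates, 13 without samples 5 to 8 of batches numbered 1, and 11 to 31 with 1 batch left out; pool10 against pool5 gave 12, then 0, 5 and 2 to 21. Of 163 alternatives for single features, 140 kept direction and call, 21 kept direction and lost the call, and 2 reversed. Both reversals were feature 1555 without batch 3, where the contrast is by construction batch 2 against batch 1: with 1 batch left out, its log2 difference ranged from -2.57 to 0.42 in pool5 and from -3.19 to 0.96 in pool20. Depth limits the off level: counts of 3 or fewer cannot be ordered.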
